A study of Mus musculus with 8 samples.

Results

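The genes described here load peptides onto major histocompatibility complex (MHC) class I molecules. RNA levels were measured in bone marrow-derived macrophages (BMDMs, macrophages differentiated in a dish from marrow precursors) of male C57BL/6J mice. The cells had received an siRNA aimed at the terminal loop of RNY, the Y RNAs (the Y RNA siRNA below), or Control (Ct) siRNA (the control siRNA). Y RNAs are short noncoding RNAs that bind the proteins Ro60 and La, and the title of the study asks for targets of the small RNAs made from them. The study applied both conditions to 4 mice, which gives 8 arrays in 2 groups of 4, and an array's replicate number is taken as the number of its mouse. No label gives the siRNA sequence, its dose or the time of harvest, and 0 probes for Y RNAs are on the array, so the knockdown itself could not be checked. The 10 genes were chosen by name, as H2-K1, H2-D1, B2m, Tap1, Tap2, Erap1, Tapbp, Calr, Pdia3 and Nlrc5, and every probe that the array design assigns to one of them was taken. That gave 12 of the array's 55681 probes, with 1 probe for each gene except H2-K1 and Nlrc5, which have 2 each. All 12 were well above background on all 8 arrays and are among the 26818 probes that passed the filter on dim probes.

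Class I molecules show the cell's own peptides to CD8 T cells. Each consists of a heavy chain (H2-K1 or H2-D1 in this strain), the light chain B2m and a peptide. Peptides cut by the proteasome in the cytosol are pumped into the endoplasmic reticulum by the transporter Tap1/Tap2, are trimmed there by the aminopeptidase Erap1, and are fitted into the heavy chain in a loading complex in which tapasin (Tapbp), the lectin chaperone calreticulin (Calr) and the disulfide isomerase ERp57 (Pdia3) take part. Nlrc5 is a transcriptional activator of class I genes. Macrophages express this pathway constitutively, and interferons raise it.

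Every value is a log2 signal after background subtraction, set relative to the array's own 75th percentile, and is called the log2 level below. A fold change is the mean log2 level with the Y RNA siRNA minus that with the control siRNA, so a difference of 1 is a doubling, and it is given with its standard error (SE). Calls come from limma's two-sided moderated test, with the Benjamini-Hochberg adjusted p over all 26818 probes, and need an adjusted p under 0.05. For single genes a two-sided exact permutation test over the 8 arrays is given as well. It has 70 splits, so its smallest possible p is 0.0286, which any probe without overlap between the groups reaches. It shuffles the 8 arrays freely and ignores that both siRNAs were applied to each mouse. Its p therefore does not respect that pairing, and limma's fit without a block ignores the pairing too. Levels of different probes cannot be compared, because probes differ in how brightly they bind. Fewer cells that express a gene and less of its RNA per cell cannot be told apart in these cultures.

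The arrays shared 1 slide and 1 scan day, and 48.7% to 50.7% of their spots were well above background. Slide columns 1 and 3 held the Y RNA siRNA and columns 2 and 4 the control siRNA, so a column effect cannot be told apart from the siRNA. Both arrays of a replicate number lay side by side on the slide, so a difference between mice cannot be told apart from slide position. The RNA integrity number was 8 for control replicate 4 and 10 for the other arrays. All 9 macrophage markers on the array, Adgre1 (as Emr1), Cd68 and Csf1r among them, were well above background on all 8 arrays, and their summed linear level was 1498 to 1761 times the 75th percentile with the Y RNA siRNA and 1509 to 1757 times with the control siRNA. Of 8 dendritic cell markers, each read by its brightest probe, 5 were well above background on no array and only Siglech on all 8, and the list summed to 82.8 to 96.6 with the Y RNA siRNA and 89.0 to 96.3 with the control siRNA. Siglech made up nearly all of that sum, so the sum says little of the other 7 markers. Its mean log2 level was 6.47 with the Y RNA siRNA and 6.54 with the control siRNA. Only 1 of the 3 Siglech probes passed the filter on dim probes, so this level rests on that probe alone. The 8 lymphocyte markers, 3 of them well above background on no array, summed to 3.75 to 4.31 with the Y RNA siRNA and 3.30 to 4.70 with the control siRNA. The 8 neutrophil markers, 2 of them well above background on no array, summed to 4.53 to 6.05 with the Y RNA siRNA and 4.13 to 6.29 with the control siRNA. On all 8 arrays 3 of the lymphocyte and 4 of the neutrophil markers were well above background. Cd4 (mean log2 level 1.66 in both groups) made up most of the lymphocyte sum. Elane (1.96 with the Y RNA siRNA, 1.91 with the control siRNA) made up most of the neutrophil sum. These sums too say little of the other markers of their lists. The summed levels of the groups overlapped for each of these lists.

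None of the 12 probes passed the test, and neither did any other probe on the array (0 of 26818, 0%, in limma's fit without a block, where 3.33% had an unadjusted p under 0.05). The smallest adjusted p of the whole array was 0.123. Tap1 had the smallest p of the class I loading genes, with a log2 fold change of 0.25 and higher levels in all 4 mice. Nlrc5 was higher in all 4 mice by both of its probes, and Calr was lower in all 4. The classical heavy chains, B2m, Tap2 and Tapbp differed by at most 0.07 between the group means. The 95% interval of every one of the 12 fold changes lay within a 1.5-fold change in either direction, as it did for 83.8% of all probes tested.

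The sequences of 3 of the 60-base probes are shown, those of Tap1 and of the second, dimmer probes of Nlrc5 and H2-K1. The main values of Nlrc5 and H2-K1 below come from their brighter probes, whose sequences are not shown. The probe of Tap1 lies at chr17:34330854-34330913 on the plus strand of mm9, the build of the array design. The second probe of Nlrc5 covers 147 bases of the genome, chr8:97030478-97030624 on the plus strand, with 60 bases of transcript. The second probe of H2-K1 lies at chr17:34133984-34134043 on the minus strand. No base is capitalised in them, because no part was singled out.
Tap1 probe: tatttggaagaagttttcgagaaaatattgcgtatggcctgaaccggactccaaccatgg
Nlrc5 second probe: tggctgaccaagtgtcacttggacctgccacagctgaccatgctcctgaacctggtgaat
H2-K1 second probe: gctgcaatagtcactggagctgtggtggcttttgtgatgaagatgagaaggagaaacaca
The heavy chains are a family of near-identical genes, so likeness between probes was counted without gaps over at least 40 overlapping bases. The second H2-K1 probe was most like a probe of Gm11127, with 44 identical bases, followed by Gm8909 with 41 and H2-T23 with 39. The first H2-K1 probe shared at most 32 bases with a probe of any other gene on the array and the H2-D1 probe at most 33, and no probe of another gene shared 50 or more with any of the 3. Likeness was counted between probes only, so binding of transcripts elsewhere in their length was not assessed.

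H2-K1 encodes the heavy chain K, and its brighter probe (A_51_P198434, chr17:34133055-34133114, minus strand) was spotted 10 times on each array. Its log2 level was 8.65, 8.52, 8.36 and 8.49 in mice 1 to 4 with the Y RNA siRNA, against 8.61, 8.41, 8.27 and 8.51 with the control siRNA. The groups overlapped, mouse 1 was highest and mouse 3 lowest under both siRNAs, and the level was higher with the Y RNA siRNA in 3 of 4 mice. The log2 fold change was 0.06 ± 0.09 (SE, n = 4 each, exact permutation p = 0.657, limma adjusted p = 1.00). Repeat spots of this probe varied by an SD of 0.0417 to 0.0604 within an array. The second H2-K1 probe ranged over 7.39 to 7.66 with the Y RNA siRNA and 7.26 to 7.62 with the control siRNA, and its log2 fold change was also 0.06 ± 0.10 (SE).

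H2-D1 encodes the heavy chain D (A_65_P19395, chr17:35403886-35403945, plus strand). The log2 level of H2-D1 was 8.33, 8.19, 8.10 and 8.22 in mice 1 to 4 with the Y RNA siRNA, against 8.30, 8.12, 8.00 and 8.26 with the control siRNA. The groups overlapped almost fully, mouse 1 was again highest and mouse 3 lowest under both siRNAs, and the log2 fold change was 0.04 ± 0.08 (SE, n = 4 each, exact permutation p = 0.714, adjusted p = 1.00). B2m, the light chain that every class I heavy chain needs to reach the surface, was measured by a probe spotted 2 times per array (A_51_P129012, chr2:121978401-121978460, plus strand). The log2 level of B2m was 8.27, 8.11, 8.04 and 8.13 with the Y RNA siRNA, against 8.22, 8.10, 8.00 and 8.20 with the control siRNA. The group means of B2m differed by 0.01 ± 0.07 (SE, exact permutation p = 0.943), with a 95% interval of -0.17 to 0.18. For all 4 probes of heavy and light chains the level was higher with the Y RNA siRNA in mice 1, 2 and 3 and lower in mouse 4.

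Tap1 encodes one chain of the peptide pump, and its probe (A_51_P100327) was spotted 10 times on each array. Tap1 had log2 levels of 1.32, 1.16, 1.27 and 1.30 in mice 1 to 4 with the Y RNA siRNA, against 1.13, 1.01, 0.91 and 1.02 with the control siRNA. The 2 groups did not overlap: the lowest array with the Y RNA siRNA, that of mouse 2, lay above the highest control array, that of mouse 1. The level averaged 1.26 ± 0.07 with the Y RNA siRNA and 1.02 ± 0.09 with the control siRNA (SD, n = 4 each), a log2 fold change of 0.25 ± 0.07 (SE), which is 1.19-fold with a 95% interval of 1.07 to 1.32. The exact permutation test gave p = 0.0286, the smallest it can give, but limma's adjusted p was 1.00, so the difference did not pass. The differences within the mice were 0.19, 0.15, 0.36 and 0.28, each larger than the SD of 0.0393 to 0.0785 among repeat spots on an array. The spot SD covers printing and scanning error only, not the spread between cultures. All 4 Y RNA siRNA arrays lay above all 4 control arrays for 2 of the 12 class I loading probes, those of Tap1 and the brighter Nlrc5 probe, and for 338 of all 26818 probes (1.26%).

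Tap2 encodes the other chain of the pump (A_55_P2017645, chr17:34353116-34353175, plus strand). Tap2 had log2 levels of 4.60, 4.45, 4.41 and 4.45 with the Y RNA siRNA, against 4.56, 4.36, 4.31 and 4.49 with the control siRNA. The groups overlapped, 3 of 4 mice were higher, and the log2 fold change was 0.05 ± 0.08 (SE, exact permutation p = 0.571). The difference between the fold changes of Tap1 and Tap2 was not tested. Erap1 encodes the aminopeptidase that trims peptides in the endoplasmic reticulum (A_65_P04284, chr13:74828969-74829028, plus strand). Erap1 had log2 levels of -1.03, -0.77, -0.74 and -0.76 in mice 1 to 4 with the Y RNA siRNA, against -1.18, -0.86, -0.84 and -0.85 with the control siRNA. Mouse 1 lay well below the other mice under both siRNAs, and the level was higher with the Y RNA siRNA in all 4 mice, by 0.08 to 0.16. The log2 fold change was 0.11 ± 0.10 (SE, n = 4 each, exact permutation p = 0.400). In a fit that treats the mouse as a fixed block, and so removes the difference of mouse 1, limma's SE was 0.04 and the adjusted p 0.549.

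Tapbp encodes tapasin, which holds the empty heavy chain next to the pump (A_55_P2149763, chr17:34065963-34066022, plus strand). Its log2 level was 4.90, 4.88, 4.79 and 4.85 with the Y RNA siRNA, against 4.89, 4.75, 4.66 and 4.83 with the control siRNA. All 4 mice were higher, by 0.01 to 0.13, but the groups overlapped, and the log2 fold change was 0.07 ± 0.06 (SE, exact permutation p = 0.229). Calr encodes calreticulin, which binds the sugar on newly made heavy chains and also works outside this pathway as a calcium-binding chaperone (A_51_P416419, chr8:87366192-87366251, minus strand). Calr had log2 levels of 4.93, 5.17, 5.41 and 5.15 with the Y RNA siRNA, against 5.13, 5.47, 5.53 and 5.40 with the control siRNA. Calr was lower with the Y RNA siRNA in all 4 mice, with differences of -0.21, -0.30, -0.11 and -0.25, while the mice themselves spanned 0.44 between mouse 1 and mouse 3, so the groups overlapped. The log2 fold change was -0.22 ± 0.12 (SE, exact permutation p = 0.200, adjusted p = 1.00). The fixed mouse block gave limma an SE of 0.05 and an adjusted p of 0.425.

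Pdia3 encodes ERp57, an oxidoreductase that is bound to tapasin in the loading complex (A_66_P129730, chr2:121263343-121263402, plus strand). Its log2 level was 4.22, 4.36, 4.46 and 4.16 with the Y RNA siRNA, against 4.24, 4.45, 4.42 and 4.40 with the control siRNA. Pdia3 was lower in 3 of 4 mice, the largest difference being -0.24 in mouse 4, and the log2 fold change was -0.08 ± 0.08 (SE, exact permutation p = 0.314). The 2 probes with fold changes below 0 were therefore those of the general chaperones Calr and Pdia3, and the 10 above 0 were those of the other 8 genes. Among all probes 51.6% had a fold change above 0. The count of 10 was 8 without Y RNA siRNA replicate 1 and 6 without control replicate 3.

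Nlrc5, the activator of class I transcription, was measured by probes in different places of its transcript. The brighter one (A_55_P2016034, chr8:97051105-97051164, plus strand) had a log2 level of 2.61, 2.71, 2.68 and 2.74 in mice 1 to 4 with the Y RNA siRNA, against 2.52, 2.57, 2.43 and 2.60 with the control siRNA. The groups did not overlap, though the lowest Y RNA siRNA array and the highest control array lay next to each other. The log2 fold change was 0.16 ± 0.06 (SE, n = 4 each), which is 1.12-fold with a 95% interval of 1.01 to 1.23, with an exact permutation p = 0.0286 and an adjusted p of 1.00 in limma's fit. The second probe ranged over -2.99 to -2.57 with the Y RNA siRNA and -3.24 to -2.82 with the control siRNA. Its log2 fold change was 0.24 ± 0.11 (SE, exact permutation p = 0.0571), and the 4 mice fell into a pair near 0 (0.03 and 0.01, mice 1 and 3) and a pair near 0.5 (0.43 and 0.50, mice 2 and 4). By the brighter probe the largest difference was that of mouse 3 (0.25), so the probes did not order the mice alike.

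**Figure D1:**
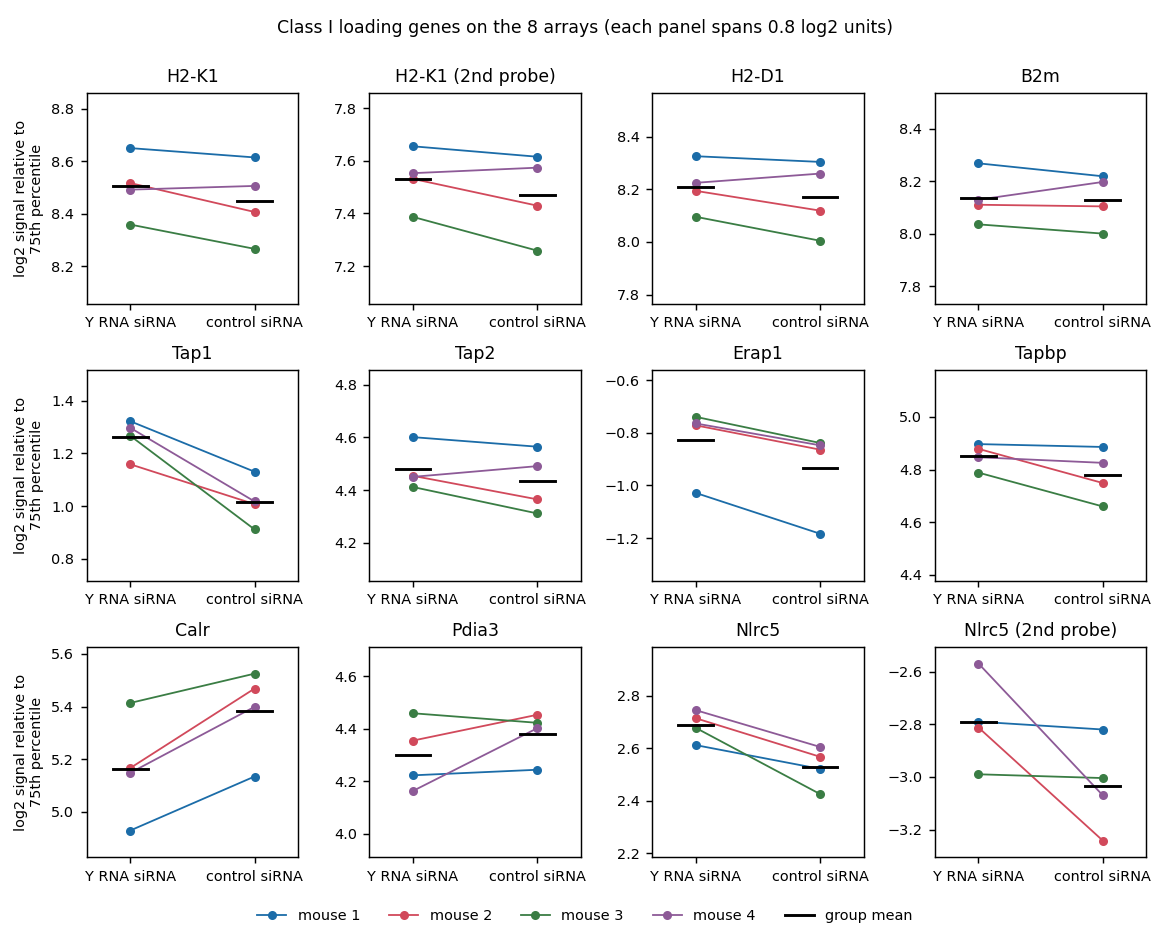
Log2 level of each of the 12 probes on the 8 arrays, relative to the array's 75th percentile, with the Y RNA siRNA on the left and the control siRNA on the right of each panel. A line joins the arrays of a mouse and black bars are group means (n = 4 each), and every panel spans 0.8 log2 units. For Tap1 and the first Nlrc5 probe the points of the groups do not overlap, and for H2-K1, H2-D1 and B2m the lines run nearly flat, with mouse 1 highest and mouse 3 lowest on both sides.

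**Figure D2:**
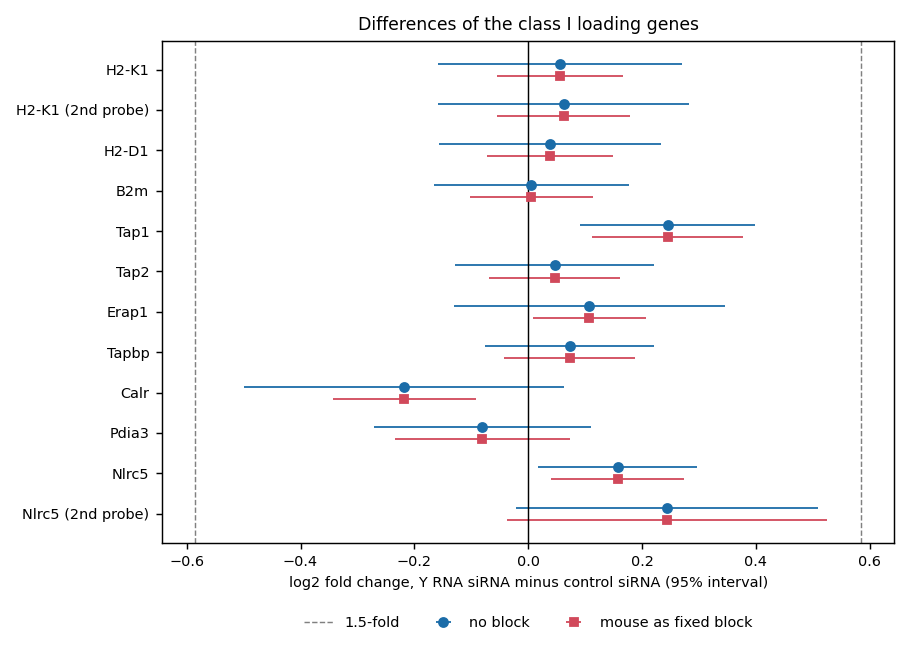
Log2 fold change of each probe, Y RNA siRNA minus control siRNA, with its 95% interval in limma's fit without a block (circles) and with a fixed block for the mouse (squares). Dashed lines mark a 1.5-fold change. All intervals lie between the dashed lines, and without a block only those of Tap1 and the first Nlrc5 probe leave out 0.

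The count of class I loading probes with an unadjusted p under 0.05 was 2 of 12, both higher with the Y RNA siRNA. Over all probes limma called 3.33% at this level, 1.53% higher and 1.80% lower. Deviations of same-numbered arrays from their group means were positively correlated (r of 0.14 to 0.59). The control array of replicate 2, however, was most like the Y RNA siRNA array of replicate 3. The design of the study has both siRNAs in each mouse, so limma's fit with a fixed block for the mouse is given beside the fit without a block. In that fit 4 of the 12 probes had an unadjusted p under 0.05, against 8.68% of all probes: Tap1 (adjusted p = 0.417), the brighter Nlrc5 probe (adjusted p = 0.480), Erap1 and Calr. The adjusted count was 0 in that fit too. With the mouse as a random block the unadjusted count was again 4 of 12, against 9.06% of all probes, and limma called 3 probes of the array (0.0112%), of which 0 were class I loading probes. The adjusted p of Tap1 was 0.186 there, the lowest of any class I loading probe in any fit run. In all 4 mice the Y RNA siRNA array was the higher one for 5 of the 12 probes (both Nlrc5 probes, Tap1, Erap1 and Tapbp), against 9.76% of all probes, and the lower one for 1 (Calr), against 9.04%.

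The median fold change over the 12 probes was 0.06, against 0.0036 over all probes, and the median size of a fold change over all probes was 0.06. The mice did not share this shift. The median difference of the 12 probes was 0.04 in mouse 1, 0.10 in mouse 2, 0.10 in mouse 3 and -0.02 in mouse 4, with 10, 10, 11 and 5 probes higher. The medians of all probes in the same mice were 0.01, 0.0065, 0.01 and -0.01. In mouse 4 the probes that were higher with the Y RNA siRNA were those of Tap1, Erap1, Tapbp and Nlrc5, and its control array is the one with the RNA integrity number of 8. Without that array the median of the 12 probes was 0.08, with 10 of 12 above 0. Whether RNA integrity had a part in the values of mouse 4 was not tested beyond that.

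**Figure D3:**
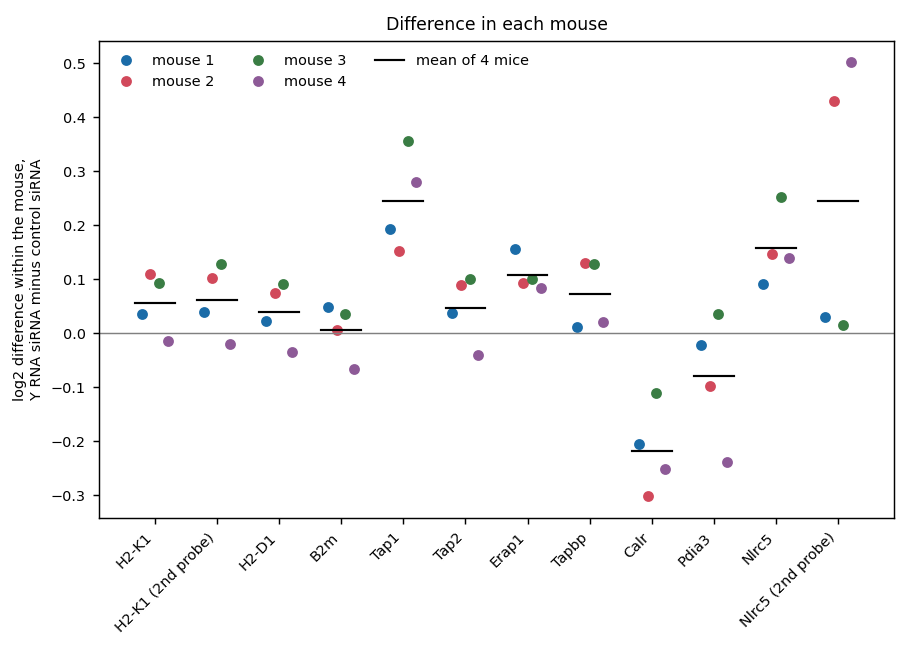
Log2 difference within each mouse, Y RNA siRNA minus control siRNA, for the 12 probes (points, 1 per mouse) with the mean of the 4 mice (black line). Tap1 and the first Nlrc5 probe are above 0 and Calr below 0 in every mouse, while mouse 4 is below 0 for H2-K1, H2-D1, B2m and Tap2.

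The range of the mouse means was set beside the size of the fold change for each probe. A range takes the most distant mouse means, each from fewer arrays than a group mean, so it tends to be the larger. The comparison therefore cannot tell whether the mice differed more than the siRNAs did. For 9 of the 12 probes the range of the mouse means exceeded the size of the fold change, as it did for 94.2% of all probes. Tap1 and both Nlrc5 probes were the 3 for which it did not. The heavy chains, B2m, Tap2 and Tapbp formed a group of 6 probes with mouse 1 highest and mouse 3 lowest, an order shared by 19.7% of all probes. Calr, Pdia3 and Erap1 had the opposite extremes, with mouse 3 highest and mouse 1 lowest, as had 16.7% of all probes. The mouse 1 arrays also had the lowest 75th percentiles (9.04 on the log2 scale on both, against 9.34 at most), which is the quantity subtracted from every value.

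The gap between mouse 1 and mouse 3 depended on the scaling for the brightest heavy and light chain probes and hardly for Calr. For the brighter H2-K1 probe the gap in log2 level was 0.32 in the main values, 0.30 with median scaling, 0.29 with normexp background correction, 0.17 with quantile normalization and 0.11 in the authors' deposited table. For the second H2-K1 probe it was 0.31, 0.30, 0.27, 0.22 and 0.21 in the same order of settings. It was 0.26, 0.25, 0.22, 0.10 and 0.10 for H2-D1 and 0.22, 0.21, 0.19, 0.07 and 0.06 for B2m. In the deposited table mouse 4, not mouse 1, was the highest for the brighter H2-K1 probe, H2-D1 and B2m. For Calr it was -0.44, -0.46, -0.47, -0.46 and -0.45. For Erap1 it was -0.32, -0.33, -0.18, -0.34 and -0.29. These gaps compare mice under both siRNAs and carry no test.

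**Figure D4:**
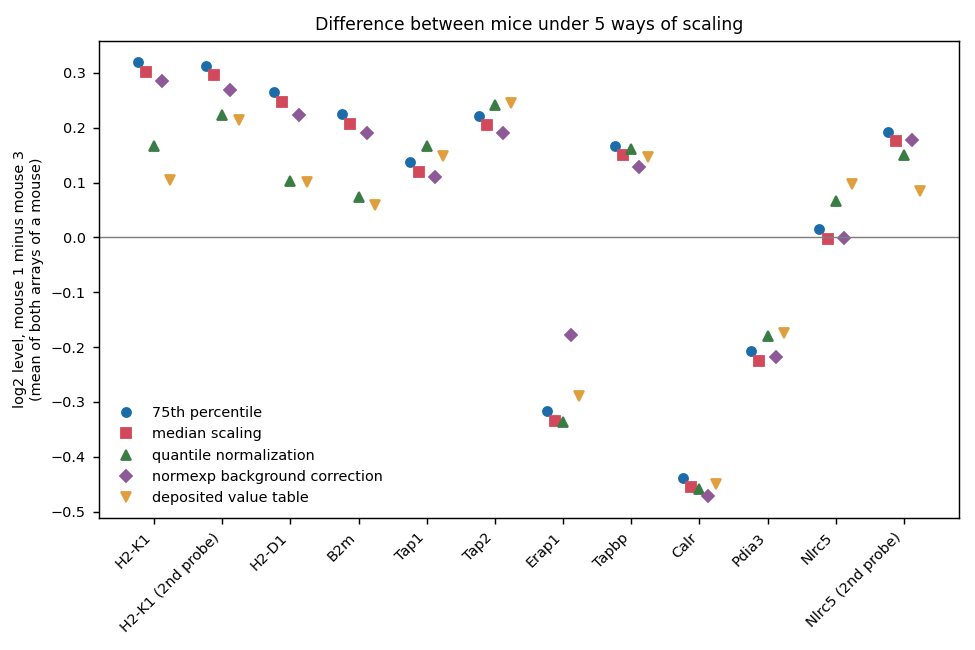
Log2 level of mouse 1 minus that of mouse 3 (mean of both arrays of a mouse) for the 12 probes under 5 ways of scaling, each with its own symbol. The first H2-K1 probe, H2-D1 and B2m have gaps of 0.22 or more in the main values and 0.11 or less in the deposited table, the second H2-K1 probe has 0.31 and 0.21, and Calr stays between -0.47 and -0.44.

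The genes around the loading step were read from 4 lists of the pathway, which hold none of the 10 genes. Of 18 other class I and class I-like genes tested 13 were higher and 5 lower with the Y RNA siRNA, with a median log2 fold change of 0.07, and 0 passed the adjusted test. Unadjusted, limma gave p under 0.05 for 3, all higher, against 1.53% of all probes. H2-Q8, a nonclassical heavy chain gene of the Q region, had log2 levels of 3.46, 3.67, 3.25 and 3.46 with the Y RNA siRNA, against 2.98, 3.27, 2.49 and 3.17 with the control siRNA. It was higher in all 4 mice, with a log2 fold change of 0.48 ± 0.17 (SE, exact permutation p = 0.0571, adjusted p = 1.00), and its groups overlapped at 1 pair of arrays. H2-T9 had log2 levels of 2.26, 2.38, 2.35 and 2.45 with the Y RNA siRNA, against 1.98, 2.23, 1.95 and 2.25 with the control siRNA, without overlap, and a fold change of 0.26 ± 0.09 (SE, exact permutation p = 0.0286). The nearest arrays of its groups were at 2.26 and 2.25, and 1.26% of all probes were separate in this direction. H2-T10, whose product resembles that of H2-T22 and is seen by some gamma delta T cells, was at 0.26 ± 0.10 (SE, exact permutation p = 0.0857), and H2-M3, which presents formylated bacterial peptides, at 0.13 ± 0.08. The Q and T genes are close copies of one another, so signal of these probes can come from a related gene, although the probes of H2-Q8, H2-T9 and H2-T10 shared at most 33 bases with a probe of any other gene on the array.

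Of 17 genes of the immunoproteasome and cytosolic peptide supply 14 were higher and 3 lower, with a median log2 fold change of 0.03 (10 higher and 7 lower with quantile normalization), and 0 passed. Psmb9, an interferon-inducible subunit of the immunoproteasome, lies next to Tap1, and its log2 levels were 5.09, 5.07, 5.04 and 5.07 with the Y RNA siRNA, against 4.90, 4.95, 4.86 and 5.03 with the control siRNA. Its groups were just separate, with the Y RNA siRNA above, as for 1.26% of all probes. Its fold change was 0.13 ± 0.06 (SE, exact permutation p = 0.0286), with 0.13 by its other probe as well. Psmb8, the neighbour of Tap1 on the other side and also an immunoproteasome subunit, was at 0.10 ± 0.07. Lnpep, an aminopeptidase that trims peptides in endosomes, was at 0.11 ± 0.06, and Nrd1, a cytosolic endopeptidase, at -0.11 ± 0.06. None of these 3 had an unadjusted limma p under 0.05.

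Of 15 folding and loading partners in the endoplasmic reticulum 8 were higher and 7 lower, with a median of 0.01 (7 and 8 with quantile normalization, normexp or the deposited table), and 0 passed. Hspa5, the chaperone BiP that binds free heavy chains, had log2 levels of 6.65, 6.63, 6.67 and 6.66 with the Y RNA siRNA, against 6.74, 6.74, 6.77 and 6.77 with the control siRNA. All 4 Y RNA siRNA arrays lay below all 4 control arrays, as for 1.13% of all probes, with a log2 fold change of -0.10 ± 0.05 (SE, exact permutation p = 0.0286, adjusted p = 1.00). Hsp90b1, the chaperone gp96, was at -0.09 ± 0.05. Prkcsh, the beta subunit of glucosidase II, was at -0.09 ± 0.05, also without overlap (exact permutation p = 0.0286), as for 1.13% of all probes. Its highest Y RNA siRNA array was at 5.86 and its lowest control array at 5.87. Uggt1, which returns misfolded glycoproteins to calreticulin, was at 0.09 ± 0.05 without overlap (exact permutation p = 0.0286), as for 1.26% of all probes. Its lowest Y RNA siRNA array was at 4.62 and its highest control array at 4.60. Its other probe was at -0.05, so its direction is uncertain. Of 21 regulators of class I transcription 11 were higher and 10 lower, with a median of 0.02, and 0 had an unadjusted limma p under 0.05. The smallest limma p values were those of the kinase Jak2 (0.10 ± 0.06), the interferon receptor chain Ifnar2 (0.08 ± 0.06) and the CCAAT-binding subunit Nfya (0.09 ± 0.07). Next was Ifnar1 (-0.08 ± 0.07), whose probes disagreed in sign. For Jak2 the Y RNA siRNA arrays all lay above the control arrays (exact permutation p = 0.0286), as for 1.26% of all probes.

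**Figure D5:**
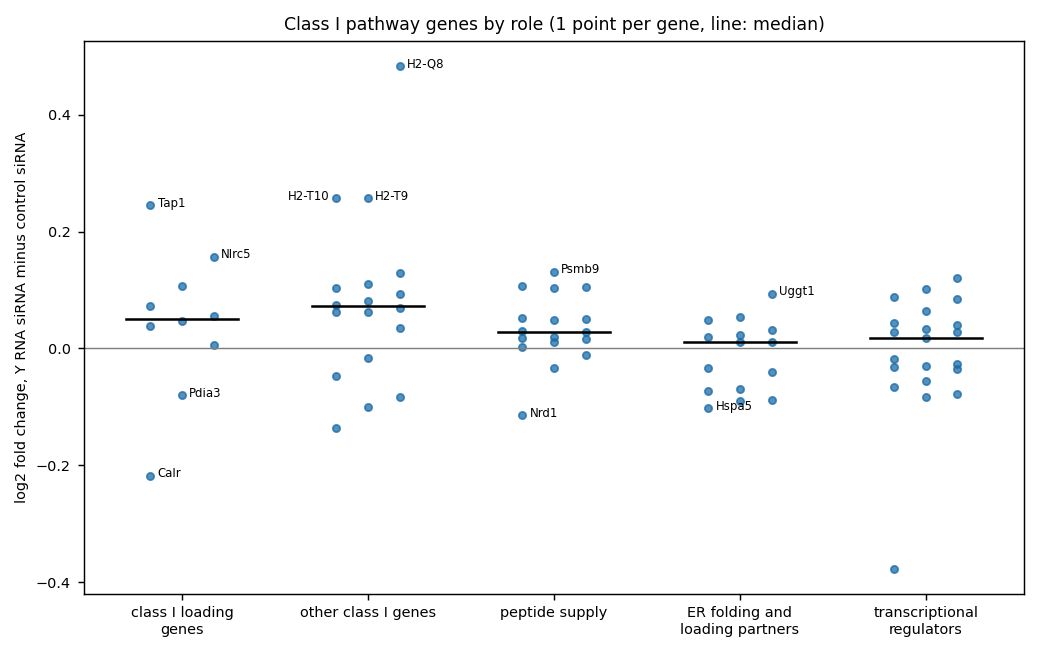
Log2 fold change, Y RNA siRNA minus control siRNA, of the 10 class I loading genes and of 4 lists of pathway genes (1 point per gene by its brightest probe, horizontal lines at the median). The medians lie between 0.01 and 0.07, and the points farthest from 0 are H2-Q8 at 0.48 and, unlabelled among the regulators, Ciita at -0.38 ± 0.35 (SE).

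The promoters of Tap1, B2m, H2-K1, H2-D1 and Calr are shown because Tap1 and Calr had the largest differences in either direction by a gene's brightest probe and the heavy and light chains were among the smallest. They are the 250 bases before the start site in RefSeq's annotation of GRCm38.p6, whose coordinates differ from those of mm9 above, and 8 of the 10 genes were matched in that table. Capitals mark matches, on either strand, to 3 elements: that of interferon regulatory factors (GAAA, any 2 bases, GAAA), of NF-kB (GGGA, any 3 bases, CCC) and of the endoplasmic reticulum stress response (CCAAT, any 9 bases, CCACG). The windows are chr17:34187306-34187555 for Tap1 (plus strand), chr2:122147437-122147686 for B2m (plus strand), chr17:34000334-34000583 for H2-K1 (minus strand, for 1 of its start sites), chr17:35262844-35263093 for H2-D1 (plus strand) and chr8:84846932-84847181 for Calr (minus strand).
Tap1 promoter: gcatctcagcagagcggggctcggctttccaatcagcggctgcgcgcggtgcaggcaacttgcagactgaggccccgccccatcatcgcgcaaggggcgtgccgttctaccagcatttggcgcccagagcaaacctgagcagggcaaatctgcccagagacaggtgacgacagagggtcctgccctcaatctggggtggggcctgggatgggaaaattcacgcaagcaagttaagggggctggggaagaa
B2m promoter: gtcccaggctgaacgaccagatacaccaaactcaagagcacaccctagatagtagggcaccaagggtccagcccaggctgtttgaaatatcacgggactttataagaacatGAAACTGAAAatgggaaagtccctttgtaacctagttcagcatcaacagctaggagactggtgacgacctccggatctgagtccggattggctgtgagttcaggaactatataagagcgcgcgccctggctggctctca
H2-K1 promoter: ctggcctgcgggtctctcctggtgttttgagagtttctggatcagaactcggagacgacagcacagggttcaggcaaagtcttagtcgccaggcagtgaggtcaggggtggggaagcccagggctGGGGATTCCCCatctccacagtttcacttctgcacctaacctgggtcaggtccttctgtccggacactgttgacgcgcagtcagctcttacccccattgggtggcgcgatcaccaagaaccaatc
H2-D1 promoter: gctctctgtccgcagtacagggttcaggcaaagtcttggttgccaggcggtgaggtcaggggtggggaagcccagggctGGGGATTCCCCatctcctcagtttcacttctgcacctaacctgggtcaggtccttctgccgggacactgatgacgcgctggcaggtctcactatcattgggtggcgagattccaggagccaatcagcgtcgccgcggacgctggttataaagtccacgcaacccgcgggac
Calr promoter: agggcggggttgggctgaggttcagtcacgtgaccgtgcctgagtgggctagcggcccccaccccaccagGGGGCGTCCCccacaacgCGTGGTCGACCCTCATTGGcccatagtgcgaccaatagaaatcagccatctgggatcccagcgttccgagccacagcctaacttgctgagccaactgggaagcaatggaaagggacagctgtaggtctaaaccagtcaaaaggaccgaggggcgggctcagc
Tap1 and Psmb9 are transcribed away from each other from starts 226 bases apart in that annotation, so the Tap1 window holds the whole stretch between them. It has none of the capitalised elements in these letters. B2m has a match to the interferon regulatory factor element in these letters, 139 bases before its start. Such a match is found in 2.98% of the 32851 promoters in the table. Variants of the elements were not searched for, so a window without a match may still hold a variant of one. H2-K1 and H2-D1 share the same run of letters with overlapping NF-kB matches on both strands, and Calr has another NF-kB match. A match to the NF-kB element is found in 4.77% of promoters. Calr alone among the matched genes has the endoplasmic reticulum stress element, 162 bases before its start and on the opposite strand, as have 0.113% of promoters. The CCAAT box (CCAAT) was found in 7 of the 8 genes and in 33.8% of promoters, and the core of the cAMP response element (TGACG) in 5 of 8 and 17.8%. The CCAAT box and this core are not capitalised. These matches describe letters in a window and are not evidence that a factor was bound in these cells.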

How the data were processed

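RNA of bone marrow-derived macrophages (0.2 µg per sample, labelled with Cy3) was measured on 8 one-colour Agilent mouse arrays (design 028005, mm9). Per the file headers, the deposited intensity values were made with Feature Extraction 10.7.3.1 and protocol GE1_107_Sep09. The processed signal is a linear intensity with background subtracted and no scaling between arrays. A second deposited table gives the authors' own log2 values, whose scaling and centring are not stated. Its column medians run from 6.26 to 6.28, each column matched its own array's raw median signal (r of at least 0.99978 on the log2 scale), and it served as an alternative.

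Control spots (3671 of 62976 per array) and spots marked as outliers (185 to 234) were left out, and 0 spots were saturated. The log2 processed signal minus the array's 75th percentile was averaged over the spots of a probe. Probes well above background on at least 4 arrays were kept (26818 of 55681). Groups were compared with lmFit and eBayes in limma 3.58.1 (R 4.3.3), two-sided, without a block, with Benjamini-Hochberg adjustment, and single genes also by an exact permutation test over the 8 arrays. The number of arrays limits the precision. The fit was tested on simulated data.

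Alternatives were other scalings and filters, the mouse as a block, the slide row as a block, 1 probe per gene, and arrays or mice left out. The study's design puts both siRNAs in each of 4 mice. To examine whether a replicate number marks a mouse, deviations of same-numbered arrays from the group means were correlated (0.59, 0.14, 0.53 and 0.25 for numbers 1 to 4). The control array of number 2 correlated best with the Y RNA siRNA array of number 3. Same-numbered arrays also lay side by side on the slide, so the correlation cannot tell a shared mouse from slide position.

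The genes and lists were chosen with earlier results of these data known. Every probe of the 10 genes is described, with all 8 values for a gene's brightest probe. From each pathway list, up to 4 genes with the smallest unadjusted p are named by their brightest probe. Lists are given as counts and medians. Gene names are those of the array design, and 0 probes of the 10 genes had an accession that RefSeq gives to another gene. Exon positions of the probes on mm9 were not analysed here.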

Additional observations from a re-analysis of the deposited data

Results flagged for a closer look

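Both arrays of mouse 1 stood apart for Erap1, the aminopeptidase that trims peptides in the endoplasmic reticulum. With the Y RNA siRNA its log2 level in mouse 1 was -1.03, and the gap to the next array was 0.889 of the group's range. With the control siRNA it was -1.18, with a gap of 0.926 of the range. Both gaps exceed Dixon's 95% critical value for groups of 4. Chance alone marks about 1 group in 20, and 2 of the 36 groups examined were marked, both of them this probe.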

How the results depend on the processing

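The adjusted count was 0 under every alternative run except the mouse as a random block, which called 3 probes of the array and none of the class I loading genes. The unadjusted count of 2 class I loading probes was 4 with the mouse as a fixed replicate block and 4 as a random block. Without single arrays or mice the count of class I loading probes lay between 1 and 4, against 2.40% to 4.83% of all probes. It was 4 without mouse 1, where the share of all probes was 4.83%. It was 1 without mouse 2, 3 or 4 (2.40% to 2.68% of all probes). It was also 1 without Y RNA siRNA replicate 2 or 4, or without control replicate 3 (2.57% to 3.14%). With the fixed block and without 1 mouse, an alternative chosen after seeing the data, the count was 2 or 3. The share of all probes was then 5.43% to 9.13%. In the gene lists the fixed block moved the unadjusted count from 3 to 4 for the other class I genes, by adding H2-M3. It went from 0 to 1 for the folding and loading partners (Hspa5) and from 0 to 1 for the lymphocyte markers (Cd3e). These lists had 18, 15 and 3 genes tested, and 8.68% of all probes had such a p in that fit. The fixed block changed no adjusted call. The signs of 4 probes turned when arrays or mice were left out. The log2 fold change then ran from -0.0382 to 0.0392 for B2m (-0.0087 and -0.0040 with the block and without mouse 1 or 3), -0.0176 to 0.0823 for H2-D1, -0.0046 to 0.11 for H2-K1 and -0.0081 to 0.11 for its second probe. Without control replicate 3 all 4 were below 0. The cause was not tested. Over all alternatives Tap1 stayed between 0.21 and 0.28, Nlrc5 between 0.12 and 0.19 (second probe 0.13 to 0.32), Calr between -0.30 and -0.14, Erap1 between 0.02 and 0.18, Tapbp between 0.03 and 0.11, Tap2 between 0.0057 and 0.09, and Pdia3 between -0.13 and -0.03. Of the 12 probes 10 were above 0 under each of the 5 scalings. Over all probes 51.6% were higher in the main values and 64.3% with median scaling, which moved the median of all probes to 0.03. With 4 arrays in a group, the 95% intervals of the class I loading probes still allow differences smaller than 1.5-fold.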
